A study of Mus musculus with 24 samples.

Results

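The 90 genes described here encode transcription factors that lay out the body axis and the organs of the embryo. They comprised 39 Hox genes, 6 Gata genes, 13 Tbx genes, Wt1, 8 Pax genes, 6 Irx genes, 6 sine oculis homeobox genes, 2 Barhl genes, 7 Lhx genes and 2 Isl genes, out of 25135 genes listed. They were taken by name from these families, with no filter on expression, and Pax6 and Lhx6 were left out. Nuclei carrying the SUN1-GFP reporter were sorted from mouse cortex at postnatal day 1 (P1) and day 30 (P30), and their RNA was sequenced. WT animals were Kdm6b wt/wt and Kdm6b-cKO animals were Emx1-Cre; Kdm6b f/f littermates, all on the reporter background and congenic with C57BL/6. The authors name Cre only in the Kdm6b-cKO genotype, but describe the reporter as marking Emx1 progeny in both cohorts. Emx1-Cre recombines in progenitors of the dorsal telencephalon, so Kdm6b is targeted in that lineage and its progeny only. There were 6 libraries per genotype and age, 24 in all, numbered 0 to 5 within each group. The sources used here do not say how many animals went into a library, so the p-values measure the spread between libraries.

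Most of these genes are textbook targets of Polycomb, the protein complexes that keep developmental genes silent outside the tissue that needs them. Polycomb repressive complex 2 places trimethylation on lysine 27 of histone H3, and KDM6B, an H3K27 demethylase, can remove it. Hox genes pattern the hindbrain, spinal cord and trunk and are normally silent in the forebrain, whereas some Lhx and Isl genes and Six3 pattern forebrain territories. The histone mark itself was not analysed here, so the genes are treated as a group by name and not by their chromatin.

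Levels are FPKM, fragment counts that the authors scaled for transcript length and library size. Low values were multiples of what 1 read is worth, which gave, for fragments of 200 bases, an effective depth of 190173 to 3890915 reads at P1 and 1936968 to 8301412 at P30. At P1, 5 libraries (WT 2, 3, 4 and 5 and Kdm6b-cKO 5) detected 397 to 794 of 1128 olfactory receptor genes, against 2 to 22 in the other 7 libraries. These 5 are called the libraries with olfactory receptor signal. All 7 cortical glutamatergic neuron markers were above 1 FPKM in each group, with summed levels of 392.2 to 999.9 FPKM at P1. At P30 they summed to 208.6 to 322.3 FPKM in WT. In Kdm6b-cKO at P30 they summed to 152.9, 147.5, 303.7, 386.5, 377.8 and 171.1 FPKM in libraries 0 to 5. The 11 GABAergic neuron markers, of a lineage outside the Emx1 domain, summed to between 663.5 and 2795 FPKM at P1 and between 31.9 and 508.3 at P30. Kdm6b, listed over the whole gene, lay at 24.9 to 51.0 FPKM in WT and 15.0 to 38.4 FPKM in Kdm6b-cKO at P1, and at 16.9 to 26.4 and 17.5 to 28.1 FPKM at P30. The groups overlapped at both ages, with adjusted p = 0.534 at P1 and 0.828 at P30 by limma. The sources used here do not give the deleted exons, so the gene-level value does not check the genotype labels. By qRT-PCR of sorted reporter nuclei, the authors report an efficient loss of Kdm6b mRNA in Kdm6b-cKO. No 2 libraries of an age held the same values.

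At P1, the number of members detected followed the olfactory receptor signal more closely than the genotype. In WT, 23, 28, 80, 78, 84 and 77 of the 90 members were above 0 FPKM in libraries 0 to 5. In Kdm6b-cKO, 9, 13, 15, 16, 27 and 79 members were above 0 in libraries 0 to 5. The 5 libraries with the signal therefore held 85.6% to 93.3% of the members above 0, and the 7 without it 10% to 31.1%, while over all listed genes the shares were 73.4% to 83.1% and 47.1% to 66.5%. The mean difference, Kdm6b-cKO minus WT, was -35.2 members over all 12 libraries, -9.5 among libraries without the signal (2 WT and 5 Kdm6b-cKO) and -0.75 among those with it (4 WT and 1 Kdm6b-cKO). Effective depth without the signal was 2478361 and 3890915 reads in WT 0 and 1. It was 342855, 833145, 2800042, 2839093 and 2727178 in Kdm6b-cKO 0 to 4. Of all listed genes, 64.8% and 66.5% were above 0 in these WT libraries and 47.1% to 65.3% in these Kdm6b-cKO libraries. The part of depth in the numbers of members was not tested. As a description over 90 chosen genes, these counts carry no test. In bulk nuclei, fewer cells of a type and less RNA per cell cannot be told apart.

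Members above 1 FPKM gave another picture. In WT, 11, 9, 22, 34, 60 and 33 members passed 1 FPKM in libraries 0 to 5, and in Kdm6b-cKO 9, 8, 8, 8, 8 and 79 did. The 7 libraries without the signal held 8 to 11 members above 1 FPKM, so the genotypes lay within 3 members of each other there. Kdm6b-cKO 5 was the shallowest library, with 190173 effective reads. A single read in a transcript of 1 kb was worth 6.56 FPKM in it, against 0.321 to 3.64 in the other 11 libraries of P1, and every member above 0 in it was also above 1. The mean difference in members above 1 FPKM was -8.17 over all libraries, -20.0 without Kdm6b-cKO 5, -1.8 among libraries without the signal and 41.75 among those with it, so its sign depended on which libraries were compared.

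**Figure D1:**
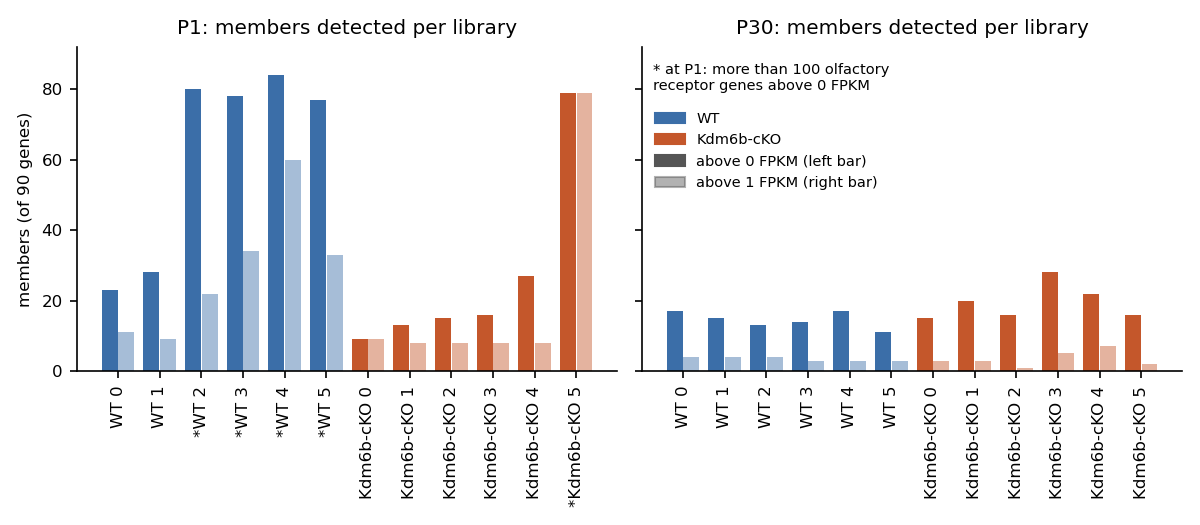
Number of the 90 members above 0 FPKM (left bar, full colour) and above 1 FPKM (right bar, pale) in each library at P1 and P30, with WT in blue and Kdm6b-cKO in orange. At P1 the 5 libraries marked with an asterisk, which had olfactory receptor signal, held 77 to 84 members above 0, and the other 7 held 9 to 28, whereas at P30 every library held 11 to 28.

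The Hox genes, whose order along each cluster matches their order of action along the body axis, were the members most completely listed at 0. On mm9 the 11 HoxA genes lie on chromosome 6 (52105366 to 52210874), the 10 HoxB genes on chromosome 11 (96055630 to 96229570), the 9 HoxC genes on chromosome 15 (102751534 to 102867274) and the 9 HoxD genes on chromosome 2 (74506367 to 74603200). In the 7 P1 libraries without the signal, 36 of the 39 were listed at 0 in every library, and 53 of all 90 members were, against 20.9% of all genes above 0 in a P1 library. The other 3 were Hoxb13, a gene of the tail and prostate, at 0.221 FPKM in WT 1, 3.33 in Kdm6b-cKO 3 and 0.315 in Kdm6b-cKO 4, Hoxd8, at 0.548 FPKM in WT 0 and 0.174 in WT 1, and Hoxd3, at 0.135 FPKM in Kdm6b-cKO 4. In the 5 libraries with the signal, all 39 Hox genes were above 0 in at least 2 libraries and 20 of them in all 5. Every cluster was represented, as between 9 and 11 HoxA, 7 and 9 HoxB, 6 and 7 HoxC and 8 and 9 HoxD genes were above 0 in each of these libraries.

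The libraries with olfactory receptor signal, by which the P1 libraries had been split, held 31 to 36 Hox genes above 0, and the other 7 held 0 to 2. Within the libraries with the signal, the Hox and olfactory receptor levels had different orders in WT. The mean over 39 Hox genes was 0.519, 0.906, 1.66 and 0.666 FPKM in WT 2, 3, 4 and 5 and 5.48 in Kdm6b-cKO 5, where the 1128 olfactory receptor genes averaged 1.01, 1.76, 1.46, 0.491 and 4.06 FPKM. The ratio of the 2 means was between 0.516 and 1.36 in these 5 libraries. In the same libraries 34.5% to 68.7% of 348 vomeronasal receptor genes, 29.6% to 55.6% of 54 keratin-associated protein genes and 14.0% to 30.2% of 43 beta-defensin genes were above 0. These 3 families were picked after the data had been seen, and the part of a source common to them and the Hox genes was not tested.

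**Figure D2:**
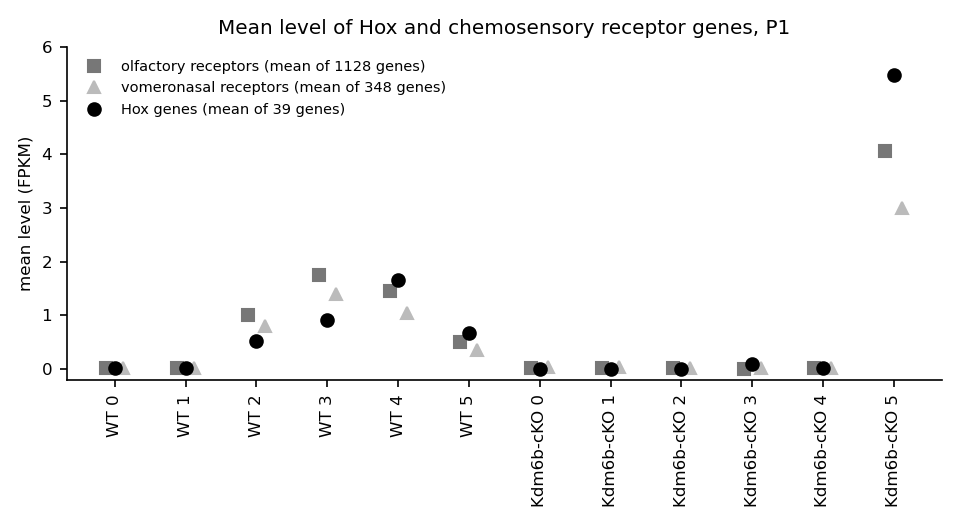
Mean level in FPKM of 39 Hox genes (black circles), 1128 olfactory receptor genes (dark grey squares) and 348 vomeronasal receptor genes (light grey triangles) in each P1 library. All 3 means lie near 0 in 7 libraries and are highest in Kdm6b-cKO 5, at 5.48 FPKM for the Hox genes and 4.06 for the olfactory receptors.

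Few reads stood behind these levels. Among 33 members with 1 annotated transcript, 23, of them 12 Hox genes, gave whole reads in every library within 0.1 of a read. The 12 Hox genes together took 39, 35, 28 and 22 reads in WT 2, 3, 4 and 5, 28 reads in Kdm6b-cKO 5 and 0 reads in the other 7 libraries, and no single gene took more than 10 reads in a library. Kdm6b-cKO 5 thus held no more Hox reads than WT 2 or 3 at a depth that was lower than theirs. Hoxd10, which patterns the lumbar spinal cord and hindlimb, had 3 reads in each of WT 2, 3, 4 and 5 and 0 in every other library. Of the 9 Hox genes that averaged 1 FPKM or more, 8 were highest in Kdm6b-cKO 5, and Hoxb1 was highest in WT 4. Hoxc13, a gene of hair and tail development, had 7, 6, 4 and 4 reads in WT 2, 3, 4 and 5 and 4 in Kdm6b-cKO 5.

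The other 8 Hox genes that passed the mean of 1 FPKM were spread over the clusters. Hoxa10, a gene of the trunk and uterus, measured 0.662, 0.643, 1.65, 1.16 and 13.3 FPKM in WT 2, 3, 4 and 5 and Kdm6b-cKO 5, and Hoxa7, a thoracic gene, 1.48, 1.74, 2.79, 0.523 and 5.96 FPKM in the same order. Hoxb1, a hindbrain gene, measured 0.461, 2.03, 5.85, 0 and 5.56 FPKM, and Hoxb13 0.373, 0, 2.10, 0.788 and 18.0 FPKM. From the HoxD cluster, Hoxd1 measured 0.261, 0.459, 2.21, 1.65 and 12.6 FPKM, Hoxd4 0.549, 2.26, 3.10, 0.773 and 8.82, Hoxd8 0.588, 2.07, 4.13, 0.621 and 14.2 and the limb gene Hoxd12 1.30, 2.28, 1.04, 0.782 and 6.69 FPKM in that order. None of the 9 would have averaged 1 FPKM without its highest library, so the filter itself favoured genes that were high in Kdm6b-cKO 5.

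Of the Hox genes below a mean of 1 FPKM, the 3 members with the most negative genotype difference at P1 were Hoxd10, Hoxc9 and Hoxb5. Hoxd10 was at 0, 0, 0.526, 0.925, 1.48 and 1.11 FPKM in WT 0 to 5 and listed at 0 in all 6 Kdm6b-cKO libraries. The same libraries were positive for Hoxc9, a gene of thoracic patterning, with 0.286, 1.01, 3.22 and 0.604 FPKM in WT 2, 3, 4 and 5, and for Hoxb5, with 0.767, 0.900, 0.720 and 0.540 FPKM. In each case the WT libraries above 0 were the 4 with olfactory receptor signal, and the groups overlapped at 0. The exact two-sided permutation test over all regroupings of the 12 libraries gave p = 0.0606 and adjusted p = 0.410 for all 3 genes, and the differences on the log2(FPKM + 0.1) scale were -2.26, -2.21 and -2.03. Among libraries without the signal the 3 genes were listed at 0 in both genotypes. The 250 bases before the starts of Hoxd10 (mm9, chr2:74528897-74529146, plus strand), Hoxb5 (mm9, chr11:96163659-96163908, plus strand) and Hoxc9 (mm9, chr15:102806620-102806869, plus strand) are shown as promoters of genes that were read only with the signal, with CG, the pair that DNA methylation and Polycomb recruitment act on, in capitals:
Hoxd10: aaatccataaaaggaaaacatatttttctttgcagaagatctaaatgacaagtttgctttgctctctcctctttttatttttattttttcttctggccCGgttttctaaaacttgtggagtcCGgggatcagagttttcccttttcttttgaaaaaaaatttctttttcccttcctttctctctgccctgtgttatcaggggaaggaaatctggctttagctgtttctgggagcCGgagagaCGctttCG
Hoxb5: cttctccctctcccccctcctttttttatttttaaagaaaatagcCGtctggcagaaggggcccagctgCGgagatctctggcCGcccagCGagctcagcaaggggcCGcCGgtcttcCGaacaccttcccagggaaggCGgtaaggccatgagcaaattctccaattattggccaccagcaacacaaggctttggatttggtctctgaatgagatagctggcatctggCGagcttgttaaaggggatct
Hoxc9: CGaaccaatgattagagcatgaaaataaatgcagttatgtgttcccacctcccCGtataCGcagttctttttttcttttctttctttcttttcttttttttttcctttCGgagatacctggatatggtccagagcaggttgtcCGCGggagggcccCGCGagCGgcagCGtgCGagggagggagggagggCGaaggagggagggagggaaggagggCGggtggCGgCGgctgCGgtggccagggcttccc
They hold 5, 9 and 16 CG pairs. A start on mm9 was found for all 90 members in GENCODE M1, and the 250 bases before it held a median of 14 CG in the members, 12 in the Hox genes, 15 in the members outside the Hox clusters and 10 over 18419 listed genes. A count of at least 15 CG was reached by 45.6% of members, 35.9% of Hox genes and 35.9% of all listed genes. None of 1079 olfactory receptor genes with a start reached it, and their median was 1.

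Gata genes, zinc-finger regulators of blood, heart and endoderm, were low. Gata2, which also acts in midbrain and diencephalic GABAergic neurons, was the highest of them at P1, from 0.754 through a median of 2.72 to 4.79 FPKM in WT and from 0 through 1.30 to 3.54 in Kdm6b-cKO. The groups overlapped, and the log2 difference was -1.07 (SE 0.80, limma adjusted p = 0.550). Gata6, a regulator of heart and endoderm, had 9, 5, 5 and 2 reads in WT 2, 3, 4 and 5, 7 in Kdm6b-cKO 5 and 1 in Kdm6b-cKO 4. Its highest level, 12.1 FPKM, was therefore 7 reads in the shallowest library. Wt1, a regulator of kidney and gonad development, was above 0 in all 5 libraries with the signal, at no more than 1.80 FPKM, and at most 0.126 FPKM in the others.

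Among the Tbx genes, which encode T-box factors of limb, heart and mesoderm, Tbx2, Tbx18 and Tbx6 averaged 1 FPKM or more even without the libraries that had the signal. Tbx2, a repressor used in the heart, limb and eye, ran from 1.31 through 1.68 to 2.18 FPKM in WT and from 0.416 through 2.16 to 7.46 in Kdm6b-cKO. Tbx18, which marks mural cells and meninges besides the heart, ran from 1.42 through 2.98 to 4.05 FPKM in WT and from 0.779 through 1.69 to 4.63 in Kdm6b-cKO. All 12 libraries had both genes, and the genotypes overlapped. The endothelial and mural markers, 8 of 8 above 1 FPKM in each group, summed to between 67.6 and 219.7 FPKM at P1, and the meningeal fibroblast markers to between 35.3 and 131.3 FPKM. Their part in the level of Tbx18 was not tested. Tbx6, a regulator of paraxial mesoderm, was above 0 in 6 of 6 WT and 3 of 6 Kdm6b-cKO libraries, from 0.605 through 1.51 to 3.03 FPKM and from 0 through 0.484 to 3.87. The Tbx18, Tbx2 and Tbx6 log2 differences were -0.61 (SE 0.55), 0.10 (SE 0.62) and -1.67 (SE 1.06), with limma adjusted p of 0.614, 0.955 and 0.486. Tbx20, a heart gene, was at 0 in all 7 libraries without the signal and at 0.688, 1.21, 4.19, 0.873 and 13.1 FPKM in WT 2, 3, 4 and 5 and Kdm6b-cKO 5. Tbx21, a regulator of T helper cells, measured 0.551, 0.970, 4.14, 0.776 and 11.1 FPKM in that order and Tbx3, a limb and heart gene, 1.503, 2.39, 2.18, 1.43 and 4.67 FPKM. Tbx15 had a log2 difference of -1.16 at P1 (exact p = 0.260, adjusted p = 0.665). Tbx5, a heart and forelimb gene, had 6, 1, 3 and 3 reads in WT 2, 3, 4 and 5, 4 in Kdm6b-cKO 5, and 1 in each of Kdm6b-cKO 1 and 4. Among members that averaged under 1 FPKM and were above 0 in at least 4 libraries, Hoxa3, Gata4 and Tbx5 had the highest genotype differences, at -0.18, -0.36 and -0.36, so all of those differences were negative.

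Pax and Irx genes were close to 0 outside the libraries with the signal. Of the 8 Pax genes, which pattern the spinal cord, eye, kidney and vertebrae, 6 were listed at 0 in all 7 libraries without it, and the highest level there was 0.338 FPKM. Of the 6 Irx genes, which pattern the hindbrain, heart and limb, the highest level there was 0.187 FPKM. Irx3 had 1 read in each of WT 0 and WT 1, 3, 3, 2 and 7 reads in WT 2, 3, 4 and 5, and 4 reads in Kdm6b-cKO 5. The Barhl genes act in the diencephalon, retina and ear. Barhl1 was highest at 6.51 FPKM in Kdm6b-cKO 5 and also measured 1.67 and 0.688 FPKM in Kdm6b-cKO 0 and 1, which had no olfactory receptor signal.

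The sine oculis homeobox genes included members that libraries without the signal also held. Six3, which patterns the anterior forebrain and acts in striatal neuron formation, was above 0 in all 12 P1 libraries, from 1.09 through 1.83 to 3.49 FPKM in WT and from 0.941 through 2.23 to 8.95 in Kdm6b-cKO. Six5, known from its place beside the myotonic dystrophy gene Dmpk, ran from 1.14 through 1.67 to 2.11 FPKM in WT and from 0 through 0.871 to 5.42 in Kdm6b-cKO. The WT libraries lay inside the Kdm6b-cKO range for Six5. Six3 differed by 0.48 (SE 0.59, limma adjusted p = 0.709) and Six5 by -0.95 (SE 0.90, adjusted p = 0.634) on the log2 scale. Six4, a gene of muscle and kidney development, reached 14.5 FPKM in Kdm6b-cKO 5 and no more than 0.181 FPKM in the libraries without the signal.

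Lhx2, a LIM-homeobox gene that specifies the cortex in dorsal telencephalic progenitors, was the most abundant member in all 24 libraries. At P1 it measured 29.9, 36.6, 34.5, 33.7, 30.6 and 42.7 FPKM in WT 0 to 5 and 73.2, 84.2, 30.1, 51.6, 36.5 and 33.3 FPKM in Kdm6b-cKO 0 to 5. Kdm6b-cKO 0, 1 and 3 lay above every WT library and the other 3 within the WT range. The log2 difference was 0.47 (SE 0.27, limma adjusted p = 0.443, exact p = 0.130) and did not meet the threshold for a call. Among libraries without the signal it was 0.63 (exact p = 0.238, 21 regroupings), and with it -0.074. Isl1, which specifies motor neurons, striatal projection neurons and sensory neurons, measured 12.8, 4.18, 6.87, 3.92, 12.0 and 19.2 FPKM in WT 0 to 5 and 0, 18.0, 17.0, 3.92, 12.9 and 22.4 FPKM in Kdm6b-cKO 0 to 5. All libraries except Kdm6b-cKO 0 held it, and the groups overlapped (log2 difference -0.55, SE 1.07, adjusted p = 0.825). Leaving out Kdm6b-cKO 0 turned this difference to 0.62. The summed level of 5 listed striatal and thalamic markers was 60.6 to 158.2 FPKM in WT and 29.4 to 71.7 FPKM in Kdm6b-cKO at P1, and its part in the levels of Isl1 and Six3 was not tested. The 250 bases before Lhx2 (mm9, chr2:38194551-38194800, plus strand) and Isl1 (mm9, chr13:117099897-117100146, minus strand), the members with the highest levels, are shown with CG in capitals:
Lhx2: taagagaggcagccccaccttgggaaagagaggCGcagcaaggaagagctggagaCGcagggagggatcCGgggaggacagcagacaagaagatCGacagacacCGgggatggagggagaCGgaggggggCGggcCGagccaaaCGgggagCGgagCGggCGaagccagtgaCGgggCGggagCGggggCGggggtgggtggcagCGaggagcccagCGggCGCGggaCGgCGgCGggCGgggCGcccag
Isl1: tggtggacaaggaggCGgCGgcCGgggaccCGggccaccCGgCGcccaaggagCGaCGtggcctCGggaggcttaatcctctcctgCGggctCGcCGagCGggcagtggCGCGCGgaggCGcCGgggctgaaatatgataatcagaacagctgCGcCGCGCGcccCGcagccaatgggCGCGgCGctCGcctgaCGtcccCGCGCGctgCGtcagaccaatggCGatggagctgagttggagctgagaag
They hold 25 and 33 CG pairs, within the range of 2 to 41 over the Hox genes.

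Other LIM-homeobox members gave smaller levels. Lhx9, which patterns the diencephalon, pallium and gonad, measured 1.78, 2.61, 2.72, 3.18, 3.08 and 3.60 FPKM in WT 0 to 5 and 2.00, 0, 1.79, 0.187, 0.388 and 2.77 FPKM in Kdm6b-cKO 0 to 5. The 6 Kdm6b-cKO values lay at or below 2.77 FPKM, and 3 of them below every WT value. Lhx9 was the only member at an unadjusted p under 0.05 at P1, by limma (log2 difference -1.96, SE 0.79, p = 0.0260, adjusted p = 0.282) and by the exact test (p = 0.0238, adjusted p = 0.329). The difference was -2.01 among libraries without the signal (exact p = 0.238) and -0.17 among those with it. Lhx8, needed for cholinergic neurons of the basal forebrain, ran from 0.244 through 0.776 to 4.31 FPKM in WT and from 0 through 3.40 to 11.8 in Kdm6b-cKO (log2 difference 1.28, SE 1.00, adjusted p = 0.567). WT 0 stood apart from the other WT libraries for Lhx8, and the difference among libraries without the signal was -0.22. Lhx5, a gene of Cajal-Retzius neurons and the hippocampal hem, had 7, 12, 14, 4, 6 and 7 reads in WT 0 to 5 and 0, 5, 2, 0, 10 and 1 reads in Kdm6b-cKO 0 to 5. Its log2 difference was -1.72 (SE 0.91, adjusted p = 0.400).

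**Figure D3:**
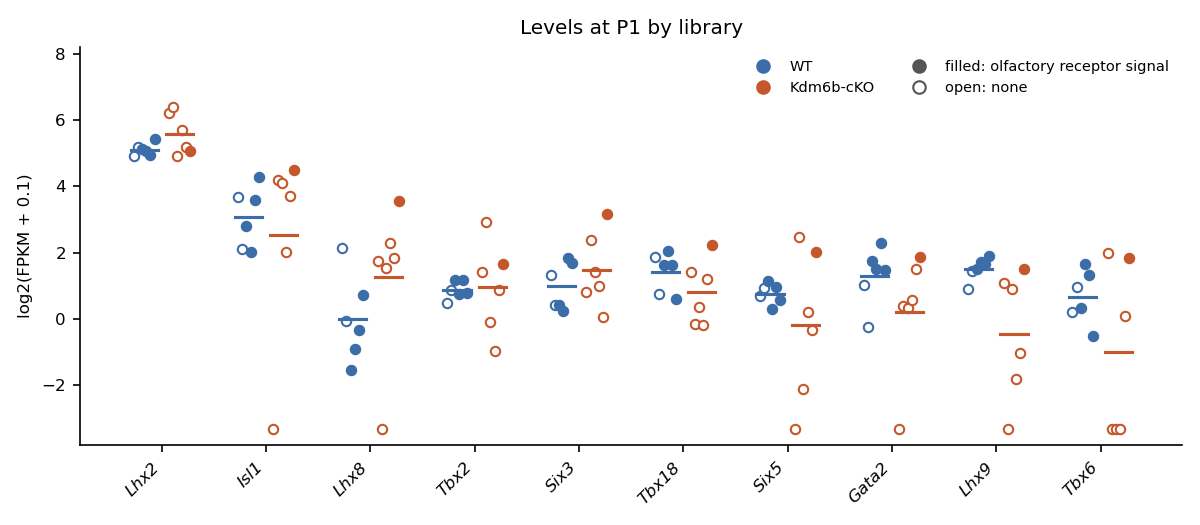
Levels at P1, as log2(FPKM + 0.1), of the 10 members that averaged 1 FPKM or more in the 7 libraries without olfactory receptor signal, each point a library, horizontal bars the group means, filled points the 5 libraries with the signal and open points the 7 without. The groups overlap for every gene, and Lhx9 has the lowest adjusted p at 0.282.

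The genotypes were compared at P1 with limma over every gene that averaged 1 FPKM or more in the 12 libraries. A call needed a change above 2-fold with adjusted p below 0.05, and 0 of the 16250 genes tested (0%) met it. At unadjusted p below 0.05, 1263 genes (7.77%) were lower in Kdm6b-cKO and 1089 (6.70%) were higher. Of the 90 members, 30 passed the filter and 60 did not. Among the 30, 0 were called and 1, Lhx9, was lower at an unadjusted p under 0.05. Only 12 of the 30 would have kept a mean of 1 FPKM without Kdm6b-cKO 5, which held the highest of the 12 libraries for 22 of them and for 70 of all 90 members, against 33.1% of all genes above 0 in a library. The 30 comprised 9 Hox, 7 Tbx, 4 Lhx and 2 Gata genes, 5 sine oculis homeobox genes, Irx3, Isl1 and Barhl1. The median log2 difference over them was -1.16, against -0.25 over all genes tested, and 25 of 30 were below 0, against 63.2% of all genes tested. Within the libraries without the signal, 16 of the 30 were below 0, 8 were listed at 0 in both genotypes and 6 were above 0. Within the libraries with it, 3 were below and 27 above 0, with a median of 2.33, all from 4 WT libraries against Kdm6b-cKO 5 alone. With olfactory receptor signal as a term in the fit, the median over the 30 was 0.51. The exact permutation test, which covers every gene above 0 in a library, called 0 of the 90 members and 0 of 23065 genes. Its smallest possible p with 6 against 6 libraries was 0.00216, and the lowest adjusted p of any gene was 0.210. Even a member at that smallest p could not have been called, so the 0 calls say nothing about the members. At unadjusted p below 0.05 the exact test found 6.72% of all genes lower and 4.80% higher, against 1 lower and 0 higher among the members. No member had WT and Kdm6b-cKO libraries that did not overlap, against 1.03% of all genes above 0 in a library and 1.29% of those that passed the filter. Single libraries moved how many members fell below an unadjusted p of 0.05. Without Kdm6b-cKO 5, 4 of 12 members were lower by limma, against 12.6% of all genes tested, and 13 of 90 by the exact test, against 13.2%. The exact test gave 6 of 90 members lower without WT 0, where 1663 of 23058 genes were lower. Without WT 1 it gave 5 of 90, where 1665 of 23045 genes were lower. It gave 0 without any one of WT 2, 3, 4 or 5, where 1100 to 1338 genes were lower. Within the libraries without the signal, Barhl2, Hoxd8 and Irx3 were lower at p = 0.0476, the smallest exact p that 2 WT and 5 Kdm6b-cKO libraries allow, and 1.95% of all genes were lower there at that p.

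**Figure D4:**
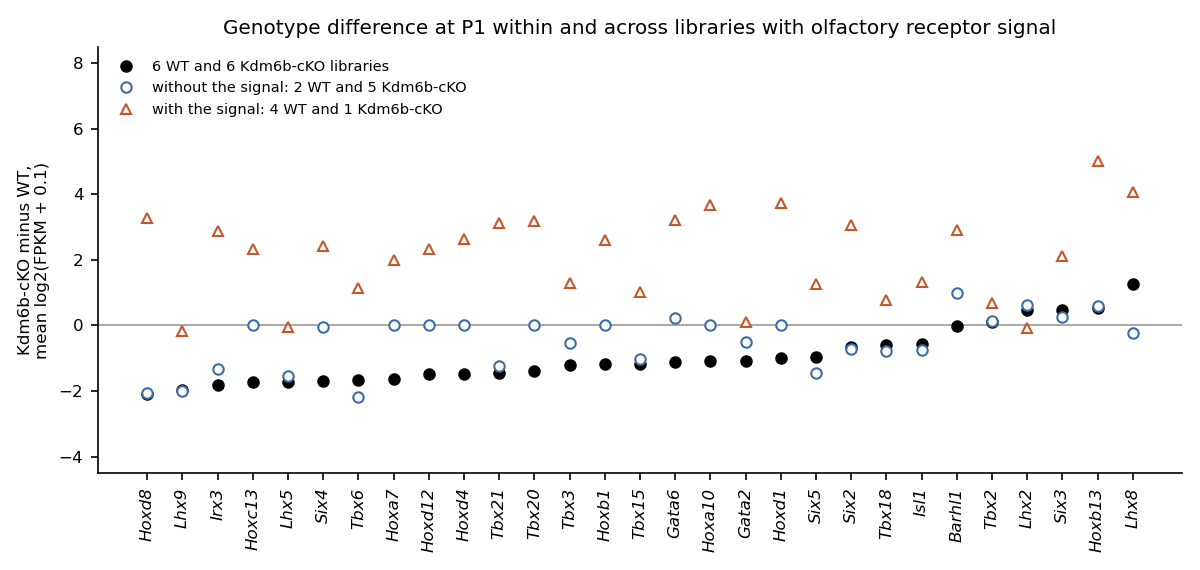
Difference in mean log2(FPKM + 0.1), Kdm6b-cKO minus WT, at P1 for 29 of the 30 members that passed the filter, over all 12 libraries (black), over the 7 libraries without olfactory receptor signal (blue circles) and over the 5 with it (orange triangles). Of the 29 plotted, 24 lie below 0 over all libraries, and 26 lie above 0 with the signal.

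At P30 each library held 11 to 28 members above 0, against 9 to 28 in the 7 P1 libraries without olfactory receptor signal and 77 to 84 in the 5 with it. No P30 library passed 100 olfactory receptor genes above 0, but Kdm6b-cKO 3 held the most, with 80 against 7 to 38 in the other 11. In WT, 17, 15, 13, 14, 17 and 11 members were above 0 FPKM in libraries 0 to 5 and 4, 4, 4, 3, 3 and 3 above 1 FPKM. In Kdm6b-cKO, 15, 20, 16, 28, 22 and 16 were above 0 and 3, 3, 1, 5, 7 and 2 above 1. Kdm6b-cKO 3 and 4 held the most, and these 2 libraries also had the highest 45S ribosomal RNA precursor (Rn45s) levels, 15420 and 25878 FPKM, against 174.9 to 4027 in the other 10, with effective depths of 2604318 and 1936968 reads. The mean difference, Kdm6b-cKO minus WT, was 5 members above 0 and 0 members above 1, and without Kdm6b-cKO 3 and 4 it was 2.25 and -1.25. The part of the ribosomal RNA level in these counts was not tested. Of the 39 Hox genes, 27 were listed at 0 in all 12 libraries. The other 12 were above 0 in some, with a highest level of 1.58 FPKM for Hoxb6, a trunk-patterning gene. Between 0 and 7 Hox genes were above 0 in a library.

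Lhx2, Six5 and Tbx6 were the 3 members with a mean of at least 1 FPKM at P30. Lhx2 measured 8.01, 10.4, 13.4, 9.88, 12.8 and 17.3 FPKM in WT 0 to 5 and 18.2, 18.4, 21.0, 18.4, 16.0 and 16.2 FPKM in Kdm6b-cKO 0 to 5. Only WT 5 reached into the range of the 6 Kdm6b-cKO libraries. Lhx2 had a log2 difference of 0.63 (SE 0.18), with an unadjusted p = 0.00391 and adjusted p = 0.169 by limma and an exact p = 0.00649 with adjusted p = 0.213. It was not called, since neither the adjusted p nor the change, which was below 2-fold, met the threshold. With Rn45s above or below 1000 FPKM as a term in the limma fit, its adjusted p was 0.0246. In that fit 1416 of 13289 genes had an adjusted p below 0.05. The difference was 0.55 among the 8 libraries above 1000 FPKM of Rn45s (5 WT and 3 Kdm6b-cKO, exact p = 0.0714) and 1.12 among the other 4 (1 WT and 3 Kdm6b-cKO). The summed GABAergic markers at P30 were 508.3 and 327.3 FPKM in WT 0 and 1, 31.9 to 110.1 in the other 4 WT libraries and 179.8 to 365.7 in Kdm6b-cKO, and their part in the Lhx2 level was not tested. Six5 ran from 1.10 through 2.12 to 2.94 FPKM in WT and from 0.494 through 0.885 to 3.49 in Kdm6b-cKO. Kdm6b-cKO 0, 1, 2 and 5 lay below every WT library and Kdm6b-cKO 4 above all (log2 difference -0.80, SE 0.44, adjusted p = 0.490). Tbx6 ran from 0.549 through 2.66 to 4.64 FPKM in WT and from 0.341 through 1.83 to 4.31 in Kdm6b-cKO, with overlapping groups (log2 difference -0.40, SE 0.64, adjusted p = 0.846).

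Of the 13289 genes tested at P30, 37 (0.278%) were called in either direction, and at unadjusted p below 0.05, 980 (7.37%) were lower and 709 (5.34%) were higher. Among the 3 members tested, 0 were called and 1, Lhx2, was higher at an unadjusted p under 0.05. Their median log2 difference was -0.40, against -0.05 over all genes tested, and 2 of the 3 were below 0, against 54.8% of all genes tested. The exact test covered 52 members above 0 in a library, while 38 members were listed at 0 in all 12. It called 0 of the 52, but its smallest possible p was 0.00216 and the lowest adjusted p of any gene was 0.153. No member could therefore have been called by the exact test at P30. By that test 2 of the 52, Lhx2 and Tbx15, were higher and 0 lower at an unadjusted p under 0.05, against 4.59% higher and 5.91% lower of 19855 genes. No member had groups that did not overlap, against 1.41% of all genes above 0 in a library and 1.94% of those that passed the filter.

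Below the filter at P30, the members with the largest positive differences were Tbx18, Tbx15 and Six2. Tbx15, a gene of craniofacial and limb mesenchyme, measured 0.151 and 0.148 FPKM in WT 0 and 1, was listed at 0 in WT 2, 3, 4 and 5, and measured 0.648, 0.294, 0.111, 0.227, 0.153 and 0.289 FPKM in Kdm6b-cKO 0 to 5. All 6 Kdm6b-cKO libraries held it, against 2 of 6 WT libraries (difference 1.39, exact p = 0.00866, adjusted p = 0.243). Tbx18 measured 1.56 and 1.07 FPKM in WT 0 and 1, was listed at 0 in the other 4 WT libraries, and measured between 0.256 and 1.69 FPKM in all 6 Kdm6b-cKO libraries (difference 1.73, exact p = 0.0606). Six2, a gene of kidney and craniofacial mesenchyme, was above 0 in 1 of 6 WT libraries and 4 of 6 Kdm6b-cKO libraries, at no more than 0.804 FPKM (difference 1.29, exact p = 0.0606). Other markers split the WT libraries in the same way as Tbx15 and Tbx18. The meningeal fibroblast markers summed to 11.0 and 7.39 FPKM in WT 0 and 1, to 1.21, 2.74, 5.17 and 4.65 FPKM in WT 2, 3, 4 and 5, and to 7.22 to 10.1 FPKM in Kdm6b-cKO. Of the 7 markers, 3 were above 1 FPKM in Kdm6b-cKO and 2 in WT, and none was at 0 throughout a group. The markers did not all follow that order. Col1a2, a fibrillar collagen gene, was at 2.02 and 2.34 FPKM in WT 0 and 1, at most 0.0477 in the other WT libraries and 0.837 to 2.87 in Kdm6b-cKO, whereas Col1a1, another, was at 2.34, 2.65 and 3.03 FPKM in WT 3, 4 and 5, within the Kdm6b-cKO range of 1.64 to 4.31, and Dcn, a proteoglycan gene, was at 1.94 FPKM in WT 4 and at 0 in Kdm6b-cKO 4. The summed GABAergic markers, given above for Lhx2, were also higher in WT 0 and 1 and in Kdm6b-cKO than in the other WT libraries. The Cajal-Retzius markers summed to 7.82 and 5.44 FPKM in WT 0 and 1, 0.977 to 3.44 in the other WT libraries and 6.45 to 12.1 in Kdm6b-cKO. The endothelial and mural markers summed to 8.95 and 15.1, 3.69 to 6.79 and 6.42 to 13.0 FPKM in that order. Microglia markers summed to 8.54 FPKM in WT 1 against 8.65 in WT 3. The glutamatergic and the striatal and thalamic sums did not have this order. The part of these marker lists in the levels of Tbx15 and Tbx18 was not tested. Among members above 0 in at least 4 libraries, the most negative differences were -0.63 for Tbx2, -0.30 for Six4 and -0.22 for Lhx9, with exact p of 0.346, 0.703 and 0.745.

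**Figure D5:**
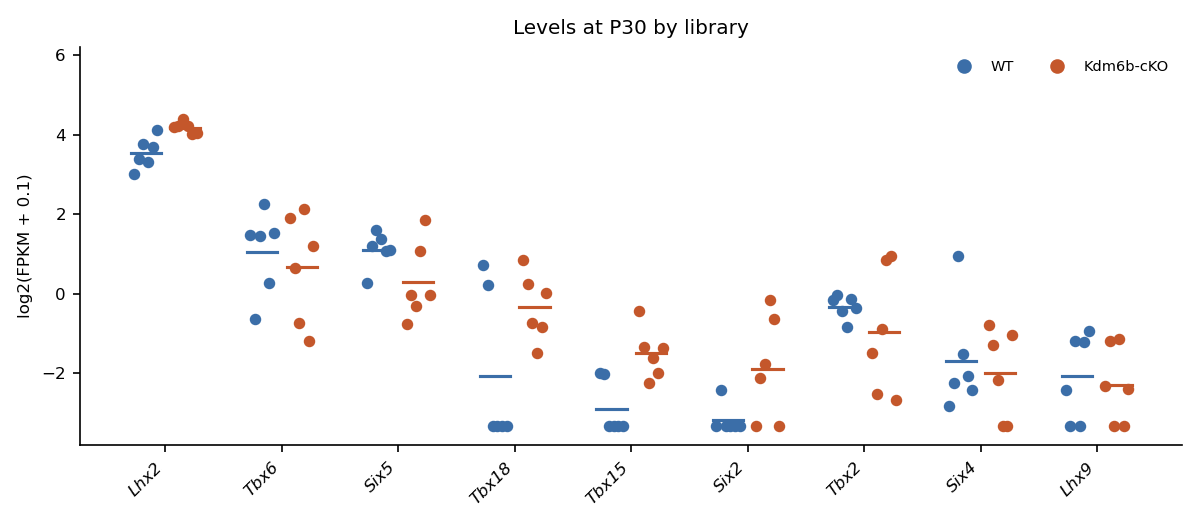
Levels at P30, as log2(FPKM + 0.1), of the 3 members with a mean of at least 1 FPKM (Lhx2, Tbx6 and Six5), of the 3 members below that with the largest differences (Tbx18, Tbx15 and Six2) and of the 3 with the smallest (Tbx2, Six4 and Lhx9), each point a library, WT blue, Kdm6b-cKO orange, bars the group means. The lowest row of points is 0 FPKM, where 4 of 6 WT libraries lie for Tbx18 and Tbx15.

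Between the ages, Isl1, Lhx8 and Lhx5 had medians of 9.45, 0.776 and 1.80 FPKM in WT and 14.9, 3.40 and 0.859 in Kdm6b-cKO at P1, and medians of 0 in both genotypes at P30, with highest values there of 0.161, 0.279 and 0.0947 FPKM. The ranges of the ages overlapped, since 1 Kdm6b-cKO library of P1 was at 0 for Isl1, 1 for Lhx8 and 2 for Lhx5. The sources used here do not say whether the FPKM of the 2 ages were scaled together, so levels are set side by side and not tested. The genotype differences at the 2 ages were compared for the 3 members with a mean of at least 1 FPKM at both. The P30 difference minus the P1 difference was 0.16 (SE 0.33, adjusted p = 0.857) for Lhx2, 0.15 (SE 1.02, adjusted p = 0.965) for Six5 and 1.28 (SE 1.28, adjusted p = 0.695) for Tbx6, and 0.00791% of the 12644 genes tested passed. The intervals are wide, and these values do not show that the genotype differences are alike.

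The Polycomb genes themselves were tested as a fixed list of 33: 11 of Polycomb repressive complex 2, 19 of complex 1, and the H3K27 demethylases Kdm6a, Kdm6b and Uty. All 33 were tested at P1, with 0 called. At unadjusted p below 0.05, 2 of them were lower, against 7.77% of all genes, and 1 was higher, against 6.70%. Ezh2, the methyltransferase of complex 2, ran from 18.6 through 23.0 to 24.9 FPKM in WT and from 25.9 through 50.3 to 85.1 in Kdm6b-cKO at P1, with no overlap between the groups, as in 1.29% of genes that passed the filter (log2 difference 1.06, SE 0.30, limma adjusted p = 0.185). Its highest values, 73.7 and 85.1 FPKM, were in Kdm6b-cKO 0 and 1. These libraries had Rn45s levels of 3423 and 3239 FPKM, against 28.7 to 898.5 in the other P1 libraries, and its part in the Ezh2 level was not tested. Ezh1, the related methyltransferase, ran from 9.60 through 10.3 to 12.3 FPKM in WT and from 3.28 through 5.13 to 10.1 in Kdm6b-cKO (log2 difference -0.92, SE 0.35, limma adjusted p = 0.249). At P30, 31 were tested, with 0 called. At unadjusted p below 0.05, 4 of them were lower, against 7.37% of all genes, and 3 were higher, against 5.34%. Of these, Phf1, an accessory factor of complex 2, had the lowest p, at 18.2 through 22.4 to 25.0 FPKM in WT and 10.2 through 14.4 to 19.2 in Kdm6b-cKO (log2 difference -0.68, SE 0.16, limma adjusted p = 0.111).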

How the data were processed

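RNA of sorted nuclei from WT and Kdm6b-cKO cortex at P1 and P30 was sequenced in 24 libraries. The authors aligned reads to mm9 with HISAT2 and deposited FPKM values per gene and library from Cuffdiff (versions not given in the sources used here). The deposited comparisons (group FPKM, log2 fold change, test statistic, p-value and q-value) were not used. At each age WT and Kdm6b-cKO were tested against each other by limma 3.58.1 (R 4.3.3, intensity trend, two-sided) on log2(FPKM + 0.1), a scale that understates changes of low genes, and with an exact two-sided permutation test of every gene above 0 in a library. P-values were adjusted by the Benjamini-Hochberg method over all genes tested. Genotype by age was fitted with limma over all libraries. Python 3.11.15 with numpy 2.4.6, pandas 2.3.3 and matplotlib 3.10.9 did the rest. Scripts were tested on simulated data.

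A library had olfactory receptor signal where more than 100 such genes were above 0. Values within each kind of library were computed too. The members, lists and tests were chosen with earlier results of these data known. Members that averaged 1 FPKM or more, and the 3 highest and 3 lowest differences among other members above 0 in at least 4 libraries, were named by rule. Wt1, Hoxb6, Hoxd3, Barhl2 and the Polycomb genes were named after their values were seen. Other settings tried were 1 or 0.01 as the pseudocount, a filter at 5 FPKM or none, quantile and median-of-ratios scaling, no trend, array weights, batch terms, subsets of libraries and each library left out. Starts on mm9 came from GENCODE M1 and sequences from the mm9 genome. The values of 1 member are not reported here.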

Additional observations from a re-analysis of the deposited data

Results flagged for a closer look

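In 4 of 38 groups of 6 libraries, 1 library stood far from the other 5 by Dixon's criterion, which chance meets in about 1 of 20 groups. Lhx8 at P1 measured 4.31 FPKM in WT 0, against 0.244 to 1.55 FPKM in the other 5 WT libraries. The other 3 groups concern Kdm6b-cKO 5 at P1. It had 79 members above 0 FPKM, against 9 to 27 in the other Kdm6b-cKO libraries, and 79 members above 1 FPKM, against 8 to 9. Its members summed to 514 FPKM, against 60.7 to 128 FPKM in the others. The same library was the shallowest and the only Kdm6b-cKO library with olfactory receptor signal, and the part of either in these values was not tested.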

How the results depend on the processing

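No paired analysis was possible because the libraries are numbered 0 to 5 in the tables and the labels number replicates otherwise, with no map between them. Over 289 alternatives for 13 single-gene differences, 13 turned the direction and 1 brought a gene past the threshold, Six5 at P30 with array weights. Array weights turned Isl1 to 0.14, Tbx2 to -0.41 and, at P30, Tbx6 to 0.14. With only the libraries that had olfactory receptor signal (4 WT and 1 Kdm6b-cKO, the lone library assumed to vary like the others), Lhx2 was -0.074, Isl1 1.32, Tbx18 0.77, Six5 1.26, Gata2 0.11 and Tbx6 1.13 at P1, and with only those without it Lhx8 was -0.22. Leaving out 1 library gave -0.95 to 0.62 for Isl1, the latter without Kdm6b-cKO 0, and -0.29 to 0.48 for Tbx2. It also gave -1.40 to -0.37 for Gata2, -1.48 to -0.32 for Six5, 0.14 to 0.77 for Six3 and 0.82 to 2.20 for Lhx8 at P1, and -0.73 to -0.03 for Tbx6 at P30.

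The P1 members at an unadjusted limma p under 0.05 numbered 1, and 4 with a pseudocount of 0.01, 7 with no filter, 6 with array weights, 0 with a mean of at least 5 FPKM, 0 with the signal as a term, 0 in only the libraries without the signal and 31 of 72 in only those with it, where 1 was called and the median was 2.65. That last fit had Kdm6b-cKO 5 as its only Kdm6b-cKO library, so it is no test of the genotype, and the exact test there cannot go below 0.2. The members at an unadjusted limma p under 0.05 were 0 to 4 when 1 library was left out. The 4 were of 12 tested without Kdm6b-cKO 5, where 12.6% of all genes were lower. By the exact test they were 5 of 90 with a pseudocount of 0.01, all lower, against 1689 of 23065 genes. They were 0 with quantile normalization and 0 to 13 leaving 1 library out, the 13 without Kdm6b-cKO 5, where 13.2% of all genes were lower. The difference in members detected was -0.75 above 0 FPKM and 41.75 above 1 FPKM among libraries with the signal. At P30, 3 members were at an unadjusted p under 0.05 with no filter, 2 with array weights, 2 without Kdm6b-cKO 3 and 4, and 1 to 2 leaving 1 library out. The P30 median was 0.27 over the 52 members tested with no filter. With a mean of at least 5 FPKM, 1 member was tested, Lhx2, at 0.63. With array weights 1 member was called, and the difference in members above 0.5 FPKM was 2. The cause was not tested. The P1 median also turned positive, to 0.51, with the signal as a term, and the P30 median, to 0.14, with array weights. Of the alternatives for counts and medians, 35 moved the value by more than the spread or 1.5 times and 239 did not.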
